A study of Mus musculus with 20 samples.

Results

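The clustered histone genes are the genes of the Hist1, Hist2, Hist3 and Hist4 loci. They were taken as every gene row whose symbol begins with Hist1h, Hist2h, Hist3h or Hist4h, and typed from the symbol. There were 69 such genes among 24983 gene symbols: 6 of histone H1, 19 of H2A, 19 of H2B, 12 of H3 and 13 of H4. They were followed in mouse male germ cells, sorted by green fluorescence (GFP), with 1 intact allele of Tex15 (Tex15+/-) or with none (Tex15-/-). The ages were embryonic days 16.5 and 18.5 (e16.5 and e18.5, 3 libraries per genotype and age) and postnatal day 2 (d2, 4 libraries per genotype). All groups shared a mixed strain background, and no group with 2 intact alleles was analysed. The GFP reporter, its driver and the animals behind each library are not given in the sources used here. The series text calls the replicates biological, and the p-values below measure the spread between these libraries.

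Histones are the proteins that package DNA. H2A, H2B, H3 and H4 form the core of the nucleosome, and H1 binds the linker between cores. Most clustered histone genes are replication-dependent: they lack introns, are transcribed during S phase, and give mRNAs that end in a stem-loop rather than in a poly(A) tail, which is bound by the stem-loop binding protein Slbp. Most variants encoded outside the clusters are made independently of DNA replication. Male germ cells of the mouse stop dividing in fetal life and resume division after birth. The clusters also hold germ-line forms: Hist1h1t encodes testis-specific H1t, Hist1h2aa encodes TH2A and Hist1h2ba encodes TH2B.

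Several regulatory sequences are shown first, because the 250 bases before a start site carry different motifs in different histone types. The window of Hist1h2aa is shown as the upstream region it shares with Hist1h2ba, the other gene of the germ-line pair. Hist1h1a, Hist1h1e, Hist1h2ak and Hist1h2bm are shown because they had among the smallest p-values at d2, and Hist1h4d because it had the highest level per kilobase. Capitals mark 4 motifs: TATAAA (the TATA box), CCAAT (the CCAAT box), ATTTGCAT (the octamer known from H2B promoters) and AAACACA (the H1 box). Both strands were searched, and a site on the other strand appears as its reverse complement. None of these strings lies within another. The sequences are those of RefSeq, build GRCm38.p6, and run 5′ to 3′ toward the start site. This build is not the mm9 build named in the submitters' processing notes, and was used for sequence only.
Hist1h2aa (chr13:23934187-23934436, + strand): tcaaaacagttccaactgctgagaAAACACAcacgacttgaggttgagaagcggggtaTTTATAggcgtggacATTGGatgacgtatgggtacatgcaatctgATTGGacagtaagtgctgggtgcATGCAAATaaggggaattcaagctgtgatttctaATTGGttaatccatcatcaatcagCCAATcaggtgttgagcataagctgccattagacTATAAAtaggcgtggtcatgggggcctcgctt
Hist1h1a (chr13:23763418-23763667, + strand): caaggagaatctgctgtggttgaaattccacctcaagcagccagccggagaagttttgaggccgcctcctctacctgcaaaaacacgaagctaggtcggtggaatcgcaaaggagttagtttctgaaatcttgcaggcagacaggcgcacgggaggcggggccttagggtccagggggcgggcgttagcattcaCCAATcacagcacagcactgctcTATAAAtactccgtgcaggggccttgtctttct
Hist1h1e (chr13:23622559-23622808, - strand): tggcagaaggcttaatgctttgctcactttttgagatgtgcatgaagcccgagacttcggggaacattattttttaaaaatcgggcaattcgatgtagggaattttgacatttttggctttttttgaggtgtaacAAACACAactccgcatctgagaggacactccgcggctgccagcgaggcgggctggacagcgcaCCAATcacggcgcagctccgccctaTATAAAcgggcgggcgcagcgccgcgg
Hist1h2ak (chr13:21753913-21754162, - strand): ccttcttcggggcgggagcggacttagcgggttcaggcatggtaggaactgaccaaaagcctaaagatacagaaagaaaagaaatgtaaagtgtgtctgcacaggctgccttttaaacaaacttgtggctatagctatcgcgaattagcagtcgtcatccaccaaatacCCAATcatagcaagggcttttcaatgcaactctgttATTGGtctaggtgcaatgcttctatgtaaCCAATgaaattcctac
Hist1h2bm (chr13:21721794-21722043, + strand): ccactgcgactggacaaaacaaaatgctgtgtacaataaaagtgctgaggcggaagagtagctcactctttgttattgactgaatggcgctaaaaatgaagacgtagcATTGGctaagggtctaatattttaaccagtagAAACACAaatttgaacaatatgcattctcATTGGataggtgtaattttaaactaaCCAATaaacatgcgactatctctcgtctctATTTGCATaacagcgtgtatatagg
Hist1h4d (chr13:23581318-23581567, + strand): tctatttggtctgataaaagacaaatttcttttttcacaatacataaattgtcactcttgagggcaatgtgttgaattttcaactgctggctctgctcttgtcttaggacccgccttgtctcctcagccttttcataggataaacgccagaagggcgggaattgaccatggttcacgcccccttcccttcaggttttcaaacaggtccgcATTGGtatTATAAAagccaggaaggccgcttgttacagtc

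Of the 69 members, 60 had 1 promoter in the RefSeq table, with 59 different sequences. CCAAT was found in 48 of 59 (81.4%), against 33.8% of all 32817 promoters of the same length in the table. It was in all 6 H1, 17 H2A and 14 H2B promoters, in 8 of 10 H3 promoters and in 3 of 12 H4 promoters. TATAAA was found in 29 of 59 (49.2%, against 12.4% of all promoters). ATTTGCAT was found in 13 of 59 (22.0%, against 1.60%), in 7 of the 17 H2A and 6 of the 14 H2B promoters. No H1, H3 or H4 promoter held it in this window. AAACACA was found in 5 of the 6 H1 promoters and in 9 of 59 overall (15.3%, against 6.25%). In RefSeq, 9 pairs of an H2A and an H2B gene lay head to head within 1000 bases, so that 1 stretch serves as the upstream sequence of both. The starts of Hist1h2ba and Hist1h2aa were 280 bases apart, and the Hist1h2aa window above holds all 4 motifs.

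Stem-loops at the 3′ end of the transcripts were searched as well. Among the 52 members whose GENCODE M21 annotation has at least 30 bases of 3′ UTR, 44 held a 16-base stem-loop with 6 paired bases on each side of a 4-base loop. It started 21 to 58 bases after the stop codon. Capitals mark the stem in the forms below, each shown for 1 gene that carries it.
Hist1h1e: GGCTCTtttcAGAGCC
Hist1h1t: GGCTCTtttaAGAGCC
Hist1h4d: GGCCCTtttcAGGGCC
Hist1h4b: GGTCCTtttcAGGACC
The first form was found in 26 members, of types H1, H2A, H2B and H3. The second was found in 6 members, including Hist1h2bb. The form printed for Hist1h4d was found in 7 members and that of Hist1h4b in 2, all of them H4 genes. No such stem-loop was found in the annotated 3′ UTR of Hist1h1a, Hist1h2bc or Hist2h2be, of which the last 2 are known also to give polyadenylated transcripts. The labels name total RNA and a whole-transcriptome amplification kit and mention no poly(A) selection; what share of tailless histone mRNA such a library captures was not measured.

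The libraries held 14328826 to 31496510 counts, of which 7775062 to 14202847 lay in genes. A CPM is 1 count in 1000000 gene counts of its library after TMM scaling, on a scale shared by all 20 libraries; 1 count was worth 0.0685 to 0.130 CPM. Tex15 stood at 612 to 2103 CPM in the Tex15+/- libraries and at 1.70 to 5.34 CPM in 9 of the 10 Tex15-/- libraries. The library labelled Tex15-/- d2 replicate 2 had 101.5 CPM, and tests that use it are given with and without it. Germ cell markers (8 genes, among them Ddx4 and Dazl) summed to 3886 to 7676 CPM in every library. Their mean sum fell with age in both genotypes. For e16.5, e18.5 and d2 in turn, it was 6944, 6117 and 4102 CPM in Tex15+/- cells. In Tex15-/- cells the means were 7577, 5722 and 4954 CPM. The sums of the other markers were 28.1 to 89.7 CPM for Sertoli cells (8 genes), 11.98 to 102 for Leydig cells (5 genes, Insl3 at 0), 121 to 328 for stroma (8 genes), 75.2 to 150 for endothelium (5 genes), 30.2 to 109 for macrophages and white blood cells (6 genes) and 3.28 to 21.4 for red blood cells (5 genes, Hba-a1, Hba-a2 and Hbb-b1 at 0). In bulk samples, a change in the share of cells of a type or cycle phase and a change in RNA per cell cannot be told apart.

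Counts of the members were low. The 68 members listed at all ages held 486 to 2536 counts per library, 0.00486% to 0.0180% of the gene counts. The members with 0 counts in all 20 libraries were 8: Hist1h2ao, Hist1h2ap, Hist1h2bq, Hist1h2br, Hist2h2aa1, Hist2h2aa2, Hist2h3c1 and Hist2h3c2. In these, a median of 6.71% of the 50-base windows of the GENCODE transcript (range 0 to 36.5%) occurred in no other transcript, against 68.3% (17.2% to 100%) in the 28 members with enough counts for a test across ages and 40.6% in the 33 others with counts. By type, the median unique share was 98.9% for H1, 60.5% for H4, 54.7% for H2B, 38.0% for H3 and 32.4% for H2A. How the authors counted reads that match several copies is not given in the sources used here, so counts of near-identical copies are uncertain. The filter on low counts left 17 members for a test in the e16.5 table, 13 in that of e18.5 and 18 in that of d2, none of them H3, and 28 in the fit across ages (all 6 H1, 6 H2A, 11 H2B, 2 H3 and 3 H4). Hist1h2al, which matched a transcribed pseudogene in RefSeq, has no row in the d2 table; it stood at 2.10 to 6.48 CPM at e16.5 and 1.04 to 4.55 CPM at e18.5.

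Of the 5 types, H4 had the largest summed level before birth, and most of it came from 1 gene. Hist1h4d ran from 28.9 to 42.7 CPM in the e16.5 libraries, from 17.4 to 25.3 CPM in those of e18.5 and from 21.1 to 48.6 CPM in those of d2. Its share of the summed CPM of all members was 47.9% ± 5.603 (SD, n = 3) in Tex15+/- cells at e16.5. It was 37.7% ± 4.23 (n = 3) by e18.5 and 26.2% ± 2.16 (n = 4) by d2. Per kilobase of coding length, Hist1h4d stood at 65.2 to 121 CPM in the 6 group means, above every other member with a coding length; Hist1h4c followed at e16.5 in Tex15+/- cells with 13.3 CPM per kb. Germ-line Hist1h2aa had 3.18 CPM per kb in Tex15+/- cells at e16.5, 12.4 by e18.5 and 29.8 by d2, where it was the second highest, ahead of Hist1h2bm (25.9), Hist1h1e (18.7), Hist1h4c (17.6), Hist1h2ak (14.2) and Hist1h1a (12.9). The spread between d2 libraries was wide for most of these, as the values below show, and their order at d2 is a description. The order also depends on the length used, since coding length leaves out untranslated bases. Per kilobase of GENCODE transcript, Hist1h4d had 30.1 and Hist1h2aa 29.8 CPM in Tex15+/- cells at d2. The annotated transcripts of Hist1h2aa (390 bases) and Hist1h2ak (393) hold no untranslated bases, and that of Hist1h4d has 1138 bases. The order on this scale thus depends on the annotation. Hist1h2bm had 18.8 there, Hist1h2ak 14.2, Hist1h1a 11.1, Hist1h4c 6.68 and Hist1h1e 6.38. At e16.5 in Tex15+/- cells Hist1h2al, which has no coding length, had 13.7, Hist1h2bf 6.97 and Hist1h4c 5.07.

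Summed over all 68 members, which needs no filter, mean histone levels were lowest at e18.5 and highest at d2. In Tex15+/- libraries the sums were 77.6, 78.9 and 72.9 CPM at e16.5, then 65.9, 49.8 and 47.6 at e18.5, and 157, 178, 105 and 84.9 at d2. In Tex15-/- libraries they were 73.3, 78.4 and 67.8 CPM, then 70.4, 46.6 and 65.1, and 122, 93.8, 89.7 and 142. Every d2 library lay above every embryonic library, and the d2 libraries of both genotypes overlapped. The d2 mean was 2.41 times that of e18.5 in Tex15+/- cells and 1.84 times in Tex15-/- cells; without the library labelled Tex15-/- d2 replicate 2, the d2 mean of Tex15-/- cells moved from 112 to 118 CPM. By type, the mean sum of H1 in Tex15+/- cells went from 6.92 ± 2.42 (SD, n = 3) to 26.6 ± 6.47 CPM (n = 4), that of H2A from 7.64 ± 2.04 to 25.1 ± 9.71, that of H2B from 11.9 ± 2.43 to 32.6 ± 14.9, that of H3 from 1.77 ± 0.321 to 4.79 ± 2.24 and that of H4 from 26.2 ± 4.0 to 42.0 ± 13.3. The low at e18.5 was not shared by all types. From e16.5 to e18.5, mean H2A went from 5.72 to 7.64 CPM in Tex15+/- and from 6.14 to 7.61 CPM in Tex15-/- cells. Mean H1 went from 7.24 to 6.92 CPM and from 5.72 to 8.44 CPM. Without Hist1h4d, the mean of all others went from 39.8 ± 3.89 to 34.1 ± 7.74 CPM in Tex15+/- cells. In Tex15-/- cells it went from 41.0 ± 2.76 to 39.4 ± 10.3 CPM, and the ages overlapped in both genotypes. These sums are descriptions and were not tested.

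**Figure D1:**
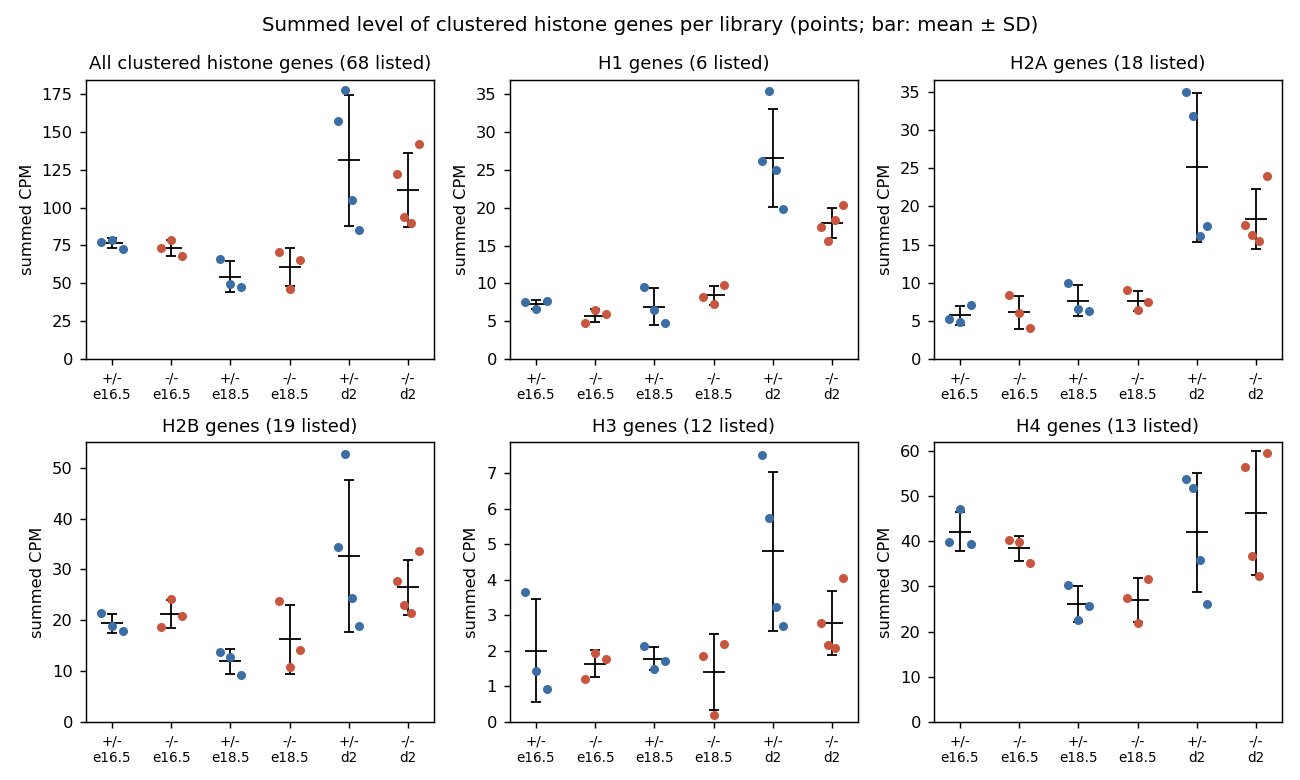
Summed CPM of the clustered histone genes in each library (points), in all and by type, for Tex15+/- (blue) and Tex15-/- (red) germ cells at e16.5, e18.5 and d2, with the mean and SD of each group as bars. In the sum of all 68 members, the 8 d2 libraries lie between 84.9 and 178 CPM and the 12 embryonic ones between 46.6 and 78.9 CPM.

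From e18.5 to d2 in Tex15+/- cells, 15 of the 28 tested members rose and none fell (edgeR's quasi-likelihood test, Benjamini-Hochberg adjusted p under 0.05). They were 5 of the 6 H1 genes, 5 of 6 H2A, 4 of 11 H2B, 0 of 2 H3 and 1 of 3 H4. Among all 18619 genes tested, 51.2% were called, 24.1% higher and 27.0% lower, and the median log2 fold change was 1.59 for the members and -0.08 for all genes. The count and the median do not stand for all 68 members: 16 of the 28 tested, and 9 of the 15 called, did not pass the filter in the e18.5 table alone, so a member seen mainly at d2 was bound to differ. With library sizes taken from all counts, repeats included, the median of all genes was 0.26, the higher share of all calls was 64.6% in place of 47.2%, and 18 members were called higher and 0 lower. Age and deposited table cannot be told apart, since each age has its own table.

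Among the linker histones, Hist1h1a (H1.1) had the smallest p. In Tex15+/- libraries its level was 1.23, 0.393 and 0.757 CPM at e18.5 and 6.79, 11.3, 8.07 and 6.87 CPM at d2, a 10.2-fold rise (log2 3.35 ± 0.58 SE, adjusted p = 3.04e-05). In Tex15-/- libraries it was 1.13, 0.479 and 0.785 CPM and then 6.66, 5.08, 6.77 and 6.64 CPM, a 7.71-fold rise (log2 2.95 ± 0.58, adjusted p = 0.000111; 8.21-fold without d2 replicate 2). The ages did not overlap in either genotype. Hist1h1e (H1.4), the H1 gene with the highest mean CPM, went in Tex15+/- libraries from 5.89, 5.18 and 2.27 CPM to 13.5, 14.9, 9.91 and 10.9 CPM (2.75-fold, log2 1.46 ± 0.36, adjusted p = 0.00137), again with no overlap. In Tex15-/- libraries Hist1h1e was 5.19, 4.98 and 7.15 CPM at e18.5 and 4.84, 4.70, 7.94 and 7.31 CPM at d2, with a log2 change of 0.10 ± 0.35 (95% interval -0.59 to 0.79, adjusted p = 0.821; log2 0.21 without d2 replicate 2). Its d2 libraries thus overlapped those of e18.5 in Tex15-/- cells.

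Hist1h1c (H1.2) was 0.959, 0 and 1.04 CPM in Tex15+/- cells at e18.5 and 2.94, 4.62, 3.69 and 0.676 CPM at d2, a 4.46-fold rise (log2 2.16 ± 0.82, adjusted p = 0.0300). This call was lost without Tex15+/- d2 replicate 2 (adjusted p = 0.0807) or 3 (0.0547) without Tex15+/- e18.5 replicate 2 (0.121), and in a fit of only the 2 groups compared (0.0570). In Tex15-/- cells Hist1h1c rose 6.86-fold, from 0.973, 0.287 and 0.523 CPM to 5.27, 4.57, 1.30 and 5.55 CPM (log2 2.78 ± 0.84, adjusted p = 0.00689; 6.66-fold without d2 replicate 2). Hist1h1d (H1.3) had 1 count over the Tex15+/- libraries at e18.5 and 53 at d2, a ratio of 48.2 after scaling (95% exact interval 8.28 to 1939, counting error only; adjusted p = 0.00431). In Tex15-/- cells its adjusted p was 0.0973, and 0.00915 without Tex15-/- e18.5 replicate 3, the library that held all 6 of its counts at that age. Hist1h1b (H1.5) was at 0.479, 0.0785 and 0 CPM and then 0.912, 2.03, 1.84 and 0.676 CPM (6.64-fold, adjusted p = 0.0325). Its call was lost without Tex15+/- d2 replicate 2 (adjusted p = 0.0724) or 3 (0.0582), and without Tex15+/- e18.5 replicate 2 (0.120) or 3 (0.126). In Tex15-/- cells Hist1h1b was at 0.0811, 0.479 and 0.174 CPM and then 0, 0.381, 0.130 and 0.252 CPM (log2 -0.32 ± 1.14, adjusted p = 0.831; log2 -0.79 without d2 replicate 2), and Hist1h1a and Hist1h1c were the 2 of 6 H1 genes called. In Tex15+/- cells the H1 gene without a call was testis-specific Hist1h1t. It stood at 0.890, 0.864 and 0.662 CPM in Tex15+/- cells at e18.5 and at 0.608, 0.491, 0.692 and 0.451 CPM at d2 (log2 -0.52 ± 0.79, adjusted p = 0.599). The Tex15-/- libraries had 0.892, 1.05 and 0.611 CPM and then 0, 0.381, 0.521 and 0 CPM, or 29 counts against 7 (log2 -1.98 ± 0.87, adjusted p = 0.0563). There the ages did not overlap, and the lower level was called without Tex15-/- d2 replicate 2 (adjusted p = 0.0401) or 3 (0.0195), with median-ratio factors (0.0490) and by DESeq2 (0.0318).

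Of the core histones, H2A genes of both the Hist1 and Hist2 clusters rose. Hist1h2ak was 0.548, 1.10 and 0.757 CPM in Tex15+/- cells at e18.5 and 8.82, 8.13, 3.11 and 2.25 CPM at d2 (6.93-fold, log2 2.79 ± 0.62, adjusted p = 0.000495). Among Tex15-/- libraries it went from 0.730, 0.958 and 1.66 CPM to 2.15, 3.18, 1.56 and 4.88 CPM (2.64-fold, log2 1.40 ± 0.59, adjusted p = 0.0454). The ages overlapped there, and the call was lost without Tex15-/- d2 replicate 2 (adjusted p = 0.0638) or 4 (0.161), or without Tex15-/- e18.5 replicate 1 (0.152) or 2 (0.117). It was also lost with median-ratio factors (0.0579), without a filter (0.0536) and in a fit of only the 2 groups compared (0.0783). Hist1h2ab rose 5.14-fold in Tex15+/- cells (from 0.412 ± 0.363 to 2.22 ± 1.14 CPM, adjusted p = 0.0133; 0.0607 without Tex15+/- e18.5 replicate 3). It rose 10.1-fold in Tex15-/- cells (from 0.256 ± 0.140 to 2.73 ± 0.707 CPM, adjusted p = 0.00151; 10.8-fold without d2 replicate 2). Hist2h2ab had 1 count at e18.5 and 44 at d2 in Tex15+/- cells, a ratio of 40.0 (95% exact interval 6.82 to 1616). Over the Tex15-/- libraries it had 0 counts and then 29, at least 9.01-fold higher against a floor of 3 counts over the group; without d2 replicate 2 it did not pass the filter on low counts. Hist2h2ac was called in Tex15+/- cells, with 4 counts against 63 (12.4-fold, adjusted p = 0.0114), but not without Tex15+/- e18.5 replicate 1 (adjusted p = 0.0588). All of these are small numbers of counts, and the size of each rise is accordingly loose.

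The H2B genes were divided. Hist1h2bm, the H2B gene with the highest mean CPM, went from 1.58, 1.26 and 0.851 CPM to 10.8, 20.4, 5.42 and 2.82 CPM in Tex15+/- cells (7.96-fold, log2 2.99 ± 0.55, adjusted p = 7.11e-05). The same gene went in Tex15-/- cells from 1.70, 1.53 and 2.27 CPM to 7.31, 6.10, 3.91 and 5.89 CPM (3.15-fold, log2 1.66 ± 0.53, adjusted p = 0.00958; 3.10-fold without d2 replicate 2). The ages did not overlap in either genotype, while the Tex15+/- libraries at d2 differed among themselves more than the Tex15-/- ones. Hist1h2bb (8.44-fold, adjusted p = 0.00122) and Hist1h2bl (8.16-fold, adjusted p = 0.00373) rose in Tex15+/- cells and were not called in Tex15-/- cells (2.31-fold and 3.30-fold, adjusted p = 0.145 and 0.0678). In Tex15-/- cells, however, Hist1h2bb was called without e18.5 replicate 1 (log2 2.48, adjusted p = 0.0187), and Hist1h2bl without d2 replicate 2 (log2 1.97, adjusted p = 0.0424) and with library sizes from all counts (log2 2.01, adjusted p = 0.0306). The difference between genotypes was not called for Hist1h2bb either (adjusted p = 0.413). Hist1h2bg, which the naming rule had not selected, rose 4.10-fold in Tex15+/- cells (adjusted p = 0.0156; 0.0721 without Tex15+/- e18.5 replicate 1). By contrast Hist2h2be stood at 2.26, 5.34 and 0.567 CPM at e18.5 and 2.74, 2.52, 2.65 and 4.62 CPM at d2 in Tex15+/- cells (log2 0.19 ± 0.76, 95% interval -1.30 to 1.68). Hist1h2bc had 1.66 ± 0.528 CPM at e18.5 and 1.67 ± 0.377 CPM at d2. Both are among the genes whose annotated 3′ UTR held no stem-loop, as is Hist1h1a, which rose.

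Hist1h4d, the dominant H4 gene, was 23.4, 17.4 and 20.2 CPM in Tex15+/- cells at e18.5 and 44.1, 42.4, 29.3 and 21.1 CPM at d2 (1.68-fold, log2 0.75 ± 0.25, adjusted p = 0.0132). The lowest d2 library lay within the e18.5 range, and the call was lost without Tex15+/- d2 replicate 1 (adjusted p = 0.0545) or Tex15+/- e18.5 replicate 2 (0.0708). Tex15-/- libraries went from 20.9, 17.5 and 25.3 CPM to 48.6, 27.96, 26.6 and 48.4 CPM (1.79-fold, log2 0.84 ± 0.25, adjusted p = 0.00588; 1.94-fold without d2 replicate 2), with no overlap. Both tested H3 genes stayed uncalled. Hist1h3d, the one with the higher mean CPM, had 0.189 to 1.10 CPM at e18.5 and 0.692 to 1.72 CPM at d2 in Tex15+/- cells.

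In the Tex15-/- genotype, 7 of the 28 tested members rose from e18.5 to d2 and none fell: Hist1h1a, Hist1h1c, Hist1h2ab, Hist1h2ak, Hist1h2bm, Hist1h4d and Hist2h2ab. Each of the 7 was also called in Tex15+/- cells. Of all genes tested, 55.0% were called, 25.3% higher and 29.7% lower, so the 25.0% of members called higher is near the background. The median log2 fold change was 0.83, also with Hist2h2ab at its bound, and -0.11 over all genes. Here too the count and the median do not stand for all 68 members. Of the 28 tested, 16 did not pass the filter in the e18.5 table alone, and neither did 3 of the 7 called. A member seen mainly at d2 was bound to differ. Without the library labelled Tex15-/- d2 replicate 2, 6 members were called higher and 1 lower: Hist1h2ak and Hist2h2ab were no longer called, Hist1h2bl was called higher and Hist1h1t lower. With library sizes from all counts, 10 were called higher and 0 lower, and 59.7% of all calls were higher in place of 45.9%.

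**Figure D2:**
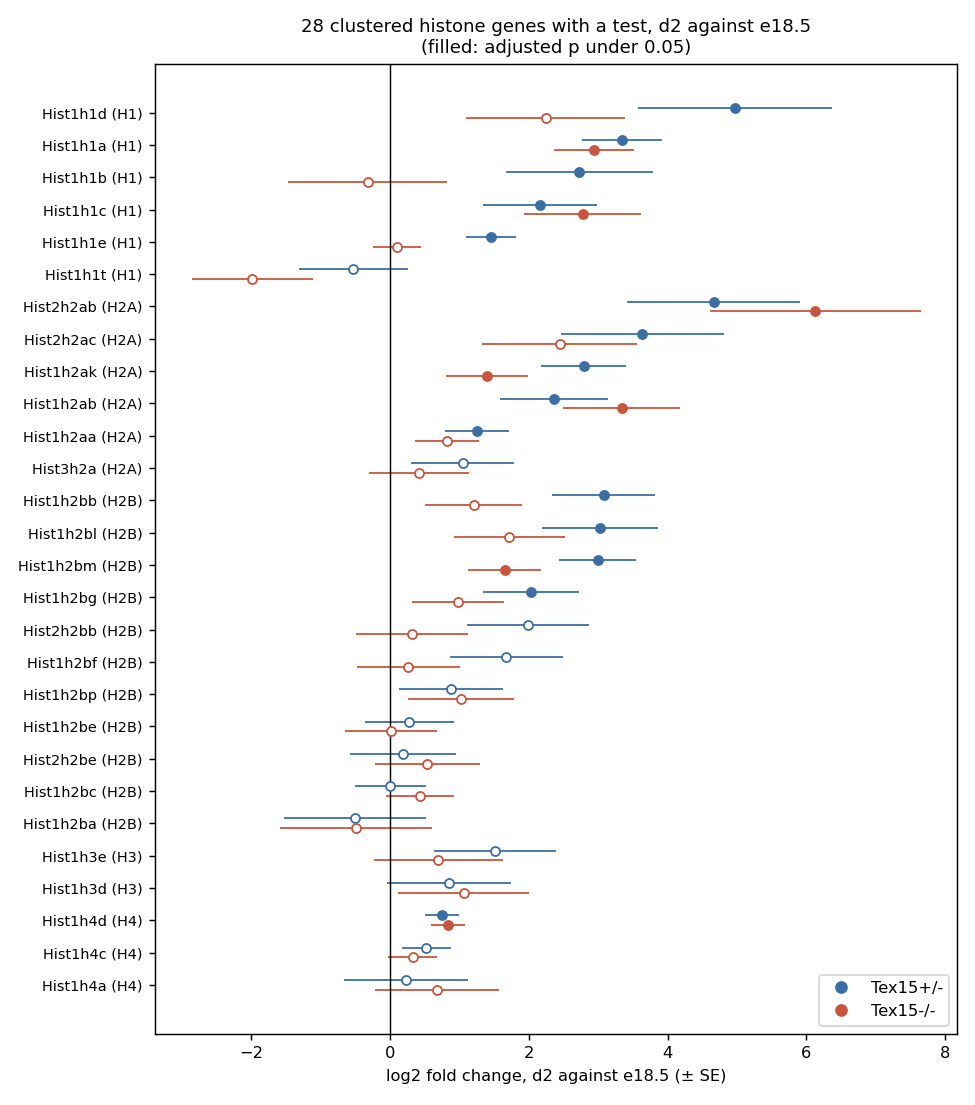
Log2 fold change from e18.5 to d2 (x axis, ± SE) of the 28 clustered histone genes with a test, sorted by type, in Tex15+/- (blue) and Tex15-/- (red) germ cells; filled points have an adjusted p under 0.05. There are 15 filled points in Tex15+/- and 7 in Tex15-/- cells, all to the right of 0.

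From e16.5 to e18.5 few members changed, and the germ-line H2A gene was among them in both genotypes. In Tex15+/- cells 2 members rose and 2 fell of 28 (14.3%), where 17.8% of all genes were called, 7.63% higher and 10.2% lower; the median log2 fold change was -0.56 for the members and 0.04 for all genes. Tex15-/- cells had 1 that rose and 1 that fell (7.14%), where 35.1% of all genes were called, 17.5% higher and 17.7% lower; the medians were -0.20 and 0.09. Hist1h2aa (TH2A) stood at 0.384, 0.549 and 2.79 CPM in Tex15+/- cells at e16.5 and at 7.40, 3.53 and 3.59 CPM at e18.5 (3.90-fold, adjusted p = 0.0119). The ages did not overlap, but the call was lost without Tex15+/- e16.5 replicate 1 (adjusted p = 0.0805) or 2 (0.0758) and without Tex15+/- e18.5 replicate 1 (0.0777). Hist1h2aa in Tex15-/- cells went from 1.04, 0.786 and 0.728 CPM to 6.48, 3.64 and 3.49 CPM (5.29-fold, log2 2.40 ± 0.55, adjusted p = 0.00147), and this call held without any 1 library.

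Hist1h2aa was higher again at d2, with 16.7, 13.2, 5.88 and 10.7 CPM in Tex15+/- cells (2.39-fold over e18.5, log2 1.26 ± 0.46, adjusted p = 0.0241) and 8.06, 6.99, 7.42 and 9.58 CPM in Tex15-/- cells (1.76-fold, log2 0.82 ± 0.46, adjusted p = 0.133; 0.129 without d2 replicate 2, and 0.0482 with library sizes from all counts). The Tex15+/- call was lost without Tex15+/- d2 replicate 1 (adjusted p = 0.0839) and without Tex15+/- e18.5 replicate 2 (0.104) or 3 (0.0981). Its head-to-head neighbour Hist1h2ba (TH2B) had 0 counts in all 3 Tex15+/- libraries at e16.5 and 41 at e18.5, at least 10.5-fold more against a floor of 3 counts over the group. The 41 counts came from 2 libraries, with 1.58, 0 and 1.70 CPM. The call (adjusted p = 0.0171) was lost without Tex15+/- e16.5 replicate 1 (0.0682) or 2 (0.0633). Hist1h2ba in Tex15-/- cells was 0, 0.262 and 0.243 CPM at e16.5 and 1.13, 0.0958 and 0.523 CPM at e18.5 (log2 1.74 ± 1.26, adjusted p = 0.290). At d2 it stood at 0.507 to 1.27 CPM in Tex15+/- and 0 to 0.757 CPM in Tex15-/- cells, with no call against e18.5 (adjusted p = 0.703 and 0.728).

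The members that fell before birth were an H2B, an H4 and an H2A gene. Hist1h2bf went from 1.63, 4.28 and 3.72 CPM to 0.411, 0.0785 and 0.473 CPM in Tex15+/- cells (9.75-fold lower, log2 -3.29 ± 0.85, adjusted p = 0.00805). Hist1h4d went from 33.7, 42.7 and 33.6 CPM to the e18.5 levels above (1.80-fold lower, log2 -0.85 ± 0.26, adjusted p = 0.0246), with no overlap. Its call was lost without Tex15+/- e16.5 replicate 1 (adjusted p = 0.0523) or 2 (0.130), without Tex15+/- e18.5 replicate 2 (0.107) or 3 (0.0682), and with library sizes from all counts (0.0595). Hist1h4d in Tex15-/- cells was 33.2, 34.2 and 28.9 CPM at e16.5 (log2 -0.60 ± 0.26, adjusted p = 0.0771; 0.0136 in a fit of only the 2 groups compared). There the member that fell was Hist2h2ab, with 13 counts at e16.5 and 0 at e18.5, at least 4.20-fold lower; its adjusted p went from 0.0170 to 0.0511 without Tex15-/- e18.5 replicate 1. Hist1h2ab went there from 1.14 ± 0.596 to 0.256 ± 0.140 CPM with no overlap, and was called by DESeq2 (adjusted p = 0.0425) but not by edgeR (0.0602). Without Tex15+/- e16.5 replicate 1 or 2, the Tex15+/- count was 1 in place of 4, and without Tex15-/- e18.5 replicate 1 the Tex15-/- count was 1 in place of 2. Leydig cell markers summed to 102 CPM in Tex15+/- e16.5 replicate 2 and to 21.9 and 25.5 CPM in the other libraries of that group. In Tex15-/- cells the sum of stroma markers went from 121 to 149 CPM at e16.5 to 217 to 235 CPM at e18.5 (4 of 8 genes called higher), and that of Sertoli markers from 28.1 to 35.9 CPM to 49.3 to 56.9 CPM (3 of 8). Of endothelial markers 2 of 5 were called higher, and of macrophage and white blood cell markers 2 of 6 higher and 1 lower. Germ cell markers had 7 of 8 called lower. Of all genes, 17.5% were called higher there and 17.7% lower. The part of these markers in the calls was not tested.

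**Figure D3:**
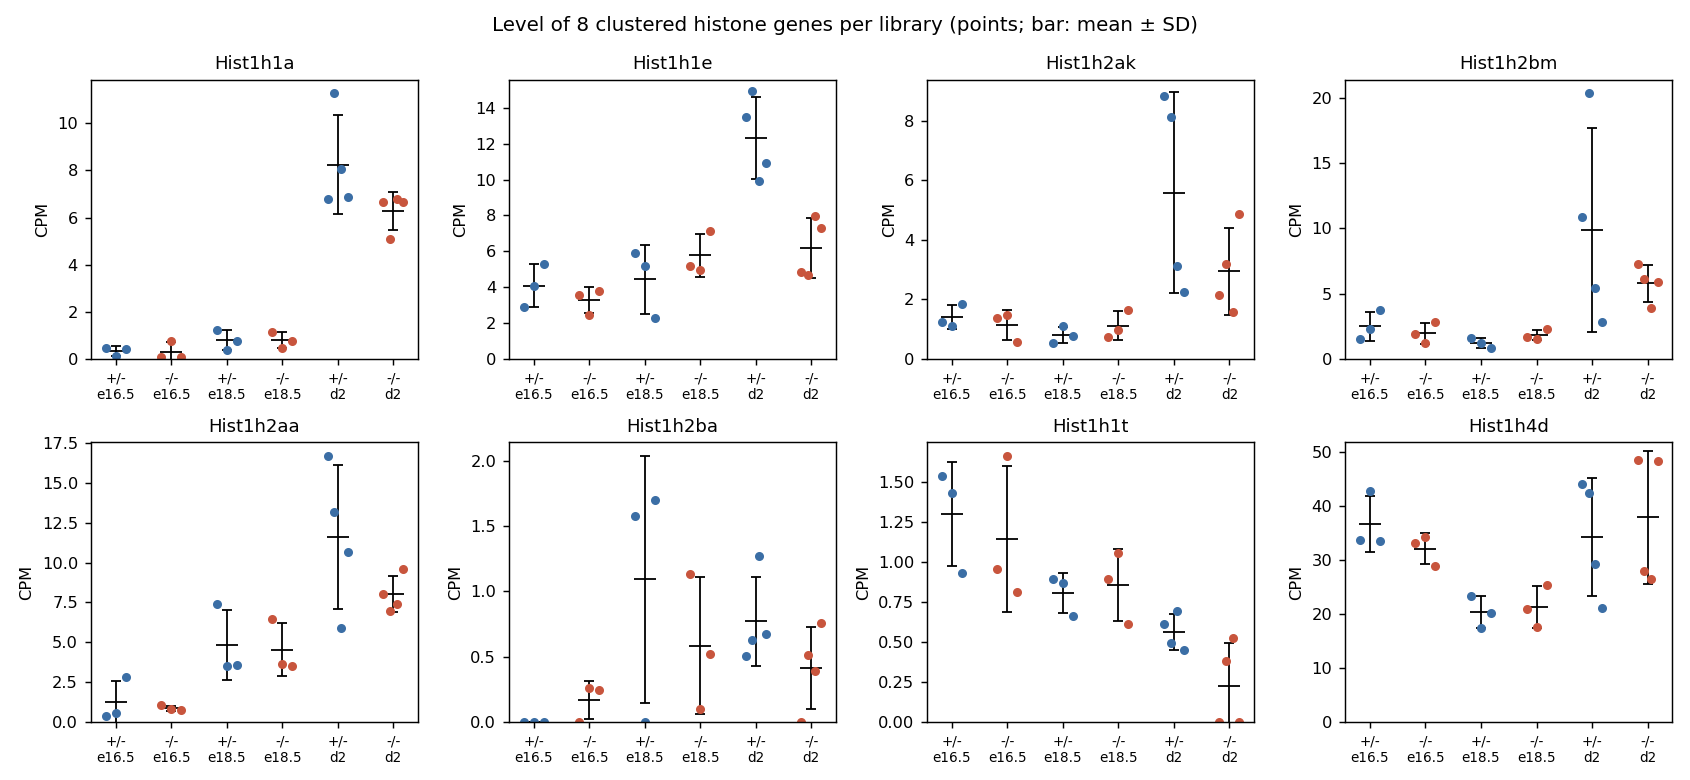
CPM of 8 clustered histone genes in each library (points; blue Tex15+/-, red Tex15-/-) by age, with the mean and SD of each group as bars. Hist1h1a and Hist1h2bm are high at d2 in both genotypes, Hist1h1e is high at d2 in Tex15+/- cells (9.91 to 14.9 CPM), and Hist1h2aa is already above its e16.5 level at e18.5.

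Between genotypes at the same age, edgeR's quasi-likelihood test called none of the clustered histone genes. At e16.5, 0 of 17 tested members were called, also at an unadjusted p under 0.05 and by DESeq2, where 0.0061% of all genes were called. At e18.5 it was 0 of 13, again also unadjusted and by DESeq2, where 2.33% of all genes were called. At d2 it was 0 of 18, where 2.8% of all genes were called; 2 members had an unadjusted p under 0.05, and DESeq2 called 1, Hist1h1e. The median log2 fold change over the tested members was -0.20, 0.06 and -0.42 by age, from e16.5 to d2, against -0.01, -0.01 and -0.02 over all genes. At d2, 12 of the 18 had a fold change below 0 and 6 above. Leaving out any 1 library gave 0 calls at each age, including the library labelled Tex15-/- d2 replicate 2.

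Hist1h1e had the smallest p at d2. Its levels, given above, were 12.3 ± 2.30 CPM (SD, n = 4) in Tex15+/- and 6.20 ± 1.67 CPM (n = 4) in Tex15-/- cells and did not overlap, a 1.99-fold lower level in Tex15-/- cells (log2 -0.99 ± 0.31, 95% interval -1.60 to -0.39). The adjusted p was 0.0977 with edgeR and 0.0336 with DESeq2, and ranged from 0.0336 to 0.259 over the alternatives; without Tex15-/- replicate 2 the log2 difference was -0.89 (adjusted p = 0.141). At e16.5 and e18.5 the corresponding log2 differences were -0.34 ± 0.39 and 0.36 ± 0.39. Hist1h2bc, the other gene with an unadjusted p under 0.05, was at 1.82, 2.10, 1.5 and 1.24 CPM in Tex15+/- and 5.05, 4.96, 1.17 and 3.95 CPM in Tex15-/- cells (log2 1.17 ± 0.54, adjusted p = 0.285; log2 1.02 without Tex15-/- replicate 2). Its libraries overlapped through Tex15-/- replicate 3. The same gene had log2 differences of 0.83 ± 0.44 at e16.5 and 0.75 ± 0.52 at e18.5, with adjusted p of 0.659 and 0.662, and its libraries did not overlap at e18.5. The next smallest p before birth belonged to Hist1h2al (log2 -0.72 ± 0.47 at e16.5 and -0.55 ± 0.53 at e18.5), then to Hist1h4d at e16.5 (-0.21 ± 0.18) and Hist1h2bm at e18.5 (0.56 ± 0.59).

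Several clustered histone genes had lower means in Tex15-/- cells at d2 without a call. Hist1h2ak was at 5.58 ± 3.37 against 2.94 ± 1.45 CPM (adjusted p = 0.385), Hist1h2bm at 9.87 ± 7.77 against 5.80 ± 1.41 CPM (0.437), Hist1h2bb at 3.35 ± 1.28 against 1.55 ± 1.05 CPM (0.372) and Hist1h1a at 8.25 ± 2.10 against 6.29 ± 0.806 CPM (0.594). Of these 4, the libraries of Hist1h1a did not overlap between genotypes, but only just. The lowest Tex15+/- value was 6.79 CPM and the highest Tex15-/- value 6.77 CPM, closer than the 0.0685 to 0.130 CPM of 1 count. Hist1h4d was at 34.2 ± 10.98 against 37.9 ± 12.3 CPM, and the 95% interval of its log2 difference was -0.35 to 0.64. The germ-line gene Hist1h2aa had an interval of -1.18 to 0.10. These intervals bound the differences and do not show equal levels. Without Tex15-/- replicate 2 the log2 differences were -0.95 for Hist1h2ak, -0.80 for Hist1h2bm, -0.86 for Hist1h2bb, -0.31 for Hist1h1a, 0.26 for Hist1h4d and -0.48 for Hist1h2aa, with adjusted p from 0.393 to 0.688. By type, the summed level at d2 was 26.2, 35.4, 25.0 and 19.8 CPM for H1 in Tex15+/- libraries and 17.4, 15.6, 18.4 and 20.4 CPM in Tex15-/- libraries, which overlap; the mean of the latter was 17.96 CPM, and 18.7 CPM without replicate 2. The H4 sums were 53.8, 51.9, 36.0 and 26.1 CPM against 56.5, 36.7, 32.3 and 59.5 CPM.

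**Figure D4:**
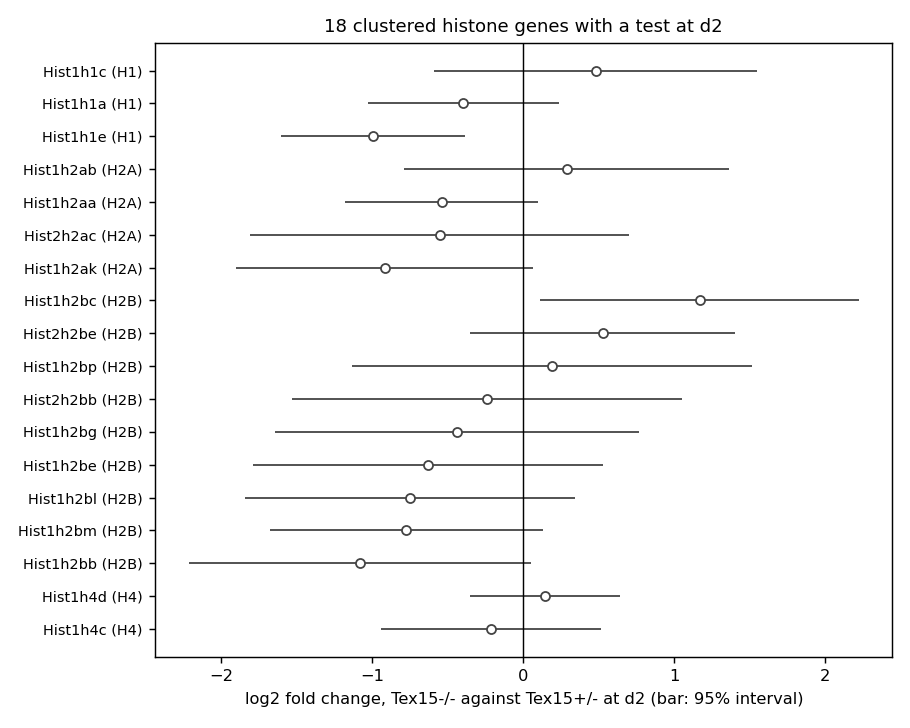
Log2 fold change between Tex15-/- and Tex15+/- germ cells at d2 (x axis; bars are 95% intervals) for the 18 clustered histone genes with a test, sorted by type. The interval lies wholly below 0 for Hist1h1e and wholly above 0 for Hist1h2bc, and no gene has an adjusted p under 0.05.

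The difference between genotypes was also tested for change with age, in the fit of all 20 libraries. From e18.5 to d2, 0 of 28 members were called by edgeR and 0 by DESeq2, where 0.526% of all genes were called, and 1 had an unadjusted p under 0.05. That gene was Hist1h1e (log2 -1.36 ± 0.50, adjusted p = 0.217; 0.117 to 0.430 over the alternatives), so its changes in the 2 genotypes are not shown to differ. Hist1h1b (log2 -3.05 ± 1.56, adjusted p = 0.398) and Hist1h2bb (-1.87 ± 0.99, 0.413) followed. Without Tex15-/- d2 replicate 2 the adjusted p of these 3 was 0.228, 0.302 and 0.448. From e16.5 to e18.5, 0 of 28 were called by either tool and 0 had an unadjusted p under 0.05, where 0.0967% of all genes were called; the smallest p values belonged to Hist1h2ba (log2 -4.83 ± 2.38, adjusted p = 0.777), Hist1h1d (3.72 ± 2.16, 0.832) and Hist1h2bf (1.87 ± 1.12, 0.838). The smaller number of calls in Tex15-/- than in Tex15+/- cells at d2 is therefore not a tested difference.

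Genes that act with the clustered histones were followed as lists. S-phase and replication genes, such as the Mcm helicase subunits and Pcna, were called higher from e18.5 to d2 for 29 of 30 in both genotypes, with or without Tex15-/- d2 replicate 2, with a median log2 fold change of 1.73 in Tex15+/- and 1.56 in Tex15-/- cells, where 24.1% and 25.3% of all genes were called higher. The most significant was Uhrf1, which recruits maintenance DNA methylation to replicated DNA, at 12.4 ± 0.838 against 195 ± 69.5 CPM in Tex15+/- cells (15.7-fold, adjusted p = 4.34e-12). Of 20 G2 and mitosis genes, 17 rose and 2 fell in each genotype (18 and 1 in Tex15-/- cells without d2 replicate 2); Birc5, a subunit of the chromosomal passenger complex, rose 7.44-fold in Tex15+/- and 10.1-fold in Tex15-/- cells (11.4-fold without d2 replicate 2). Before birth the same lists fell in part: from e16.5 to e18.5, 8 of 30 S-phase genes fell and 1 rose in Tex15+/- cells (15 and 1 in Tex15-/- cells), and 8 of 20 mitosis genes fell and none rose (14 and none). Of all genes, 10.2% were called lower in that comparison in Tex15+/- cells and 17.7% in Tex15-/- cells. In Tex15+/- cells these falls came to 2, 4 or 3 S-phase genes without e16.5 replicate 1, e16.5 replicate 2 or e18.5 replicate 1, and to 3, 5 or 5 mitosis genes without e16.5 replicate 1, e16.5 replicate 2 or e18.5 replicate 2. In Tex15-/- cells they came to 10 S-phase genes without e18.5 replicate 1, and to 9 mitosis genes without e16.5 replicate 2 or e18.5 replicate 1. Between genotypes edgeR called no S-phase gene at any age, with 0, 1 and 1 at an unadjusted p under 0.05 by age, and DESeq2 none. It called no mitosis gene either, with 1, 3 and 7 at an unadjusted p under 0.05; at d2, DESeq2 called 1 higher, 19 of 20 had a fold change above 0, and edgeR called 2 without Tex15+/- replicate 2 and 1 without the library labelled Tex15-/- replicate 2. Of 9 tested cell cycle inhibitors, 2 rose and 4 fell from e18.5 to d2 in Tex15+/- cells and 3 rose and 4 fell in Tex15-/- cells (2 and 2 without Tex15-/- d2 replicate 3, 2 and 3 without replicate 2). Of all genes, 24.1% were called higher and 27.0% lower in Tex15+/- cells, and 25.3% and 29.7% in Tex15-/- cells, so the 2 of 9 that rose in Tex15+/- cells are near the background. Cdkn1a, which encodes the inhibitor p21, rose 14.5-fold and 15.4-fold (17.97-fold without Tex15-/- d2 replicate 2), and Rbl1, a relative of the retinoblastoma gene, rose 2.74-fold and 2.35-fold (2.55-fold). Between genotypes 1 inhibitor was called, Cdkn1c at e18.5 (50.5 ± 7.44 against 28.9 ± 8.72 CPM, adjusted p = 0.0407), which was lost without Tex15+/- replicate 2 (0.208) or 3 (0.0730) or Tex15-/- replicate 2 (0.251) or 3 (0.208), and in the fit of all ages (0.277).

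Within d2 the libraries differed in these lists as well. Tex15+/- replicate 4, which had the lowest histone sum of the 8 d2 libraries, also had the lowest S-phase sum, 2378 CPM against 3070 to 4281, and the lowest mitosis sum, 2884 CPM against 5106 to 8258. Tex15+/- replicate 2 had the highest histone sum and the highest S-phase sum. The part of such differences in the comparisons between genotypes was not tested; without Tex15+/- d2 replicate 4, there were 0 calls between genotypes, and 16 members were called higher in Tex15+/- cells from e18.5 to d2. Sertoli cell markers were higher at d2 in Tex15+/- cells (74.7 to 89.7 CPM, against 48.6 to 54.3 at e18.5, with 4 of 8 genes called higher). In Tex15-/- cells they went from 49.3 to 56.9 CPM at e18.5 to 54.9 to 76.9 CPM at d2, with 2 of 8 called higher. Of all genes, 24.1% and 25.3% were called higher in these comparisons. Of 8 germ cell markers, 4 were called lower and 1 higher by d2 in Tex15+/- cells, and 4 lower and 3 higher in Tex15-/- cells. The shares of all genes called lower were 27.0% and 29.7%. The part of these marker changes in the histone results was not tested. Macrophage and white blood cell markers summed to 89.6 to 109 CPM in Tex15-/- e18.5 libraries against 30.2 to 42.0 CPM in Tex15+/- ones. Of these, 2 of 5 tested were called higher. Mean Mrc1 was 72.9 against 21.8 CPM, and mean Adgre1 13.7 against 3.86. Means of Csf1r (1.01 against 1.66) and Cx3cr1 (0.574 against 0.836) were lower. Cd68 was at 5.90 against 5.43 CPM and Ptprc at 6.26 against 4.19. Between genotypes at d2, 1 of 6 tested Sertoli markers was called lower in Tex15-/- cells, Sox9 (23.3 ± 5.36 against 9.76 ± 3.50 CPM, adjusted p = 0.0189), and the Sertoli sums were 74.7 to 89.7 and 54.9 to 76.9 CPM. Of 8 germ cell markers 1 was called higher, Dazl (1584 ± 129 against 2424 ± 649 CPM, adjusted p = 0.0349), and their sums were 3886 to 4324 and 4231 to 5445 CPM. Both were named after their values were seen. Without Tex15-/- d2 replicate 2 the adjusted p was 0.0391 for Sox9 and 0.00149 for Dazl. Leaving out 1 other library gave at most 0.0678 for Sox9 and 0.141 for Dazl, both without Tex15-/- d2 replicate 1, and library sizes from all counts gave 0.0137 and 0.123. Their part in the histone results was not tested.

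**Figure D5:**
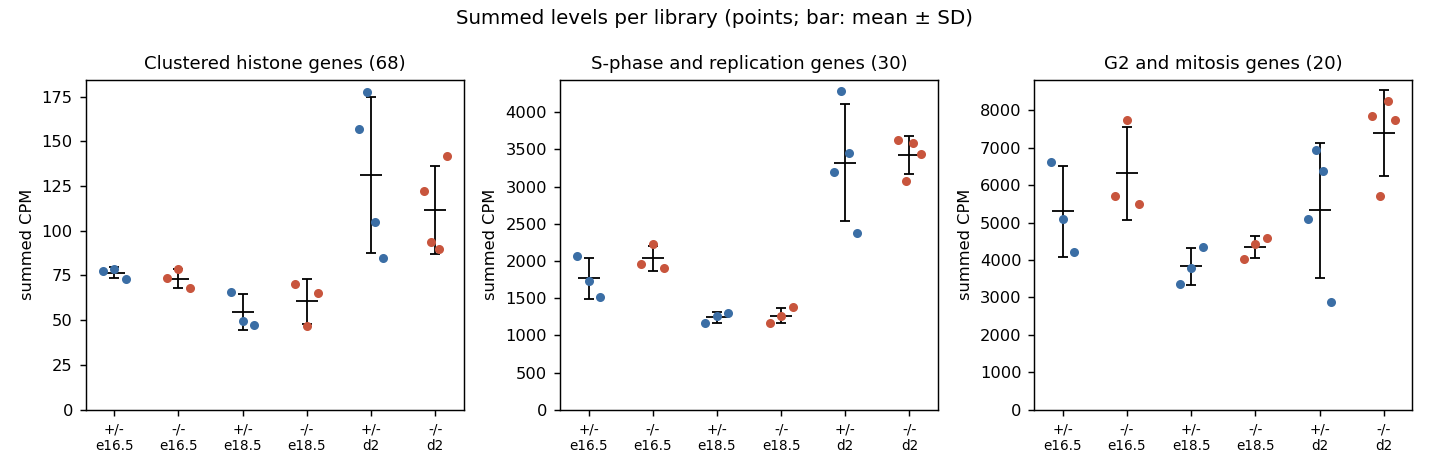
Summed CPM per library (points; bars give the mean and SD of each group) of the 68 clustered histone genes, 30 S-phase and replication genes and 20 G2 and mitosis genes, by genotype (blue Tex15+/-, red Tex15-/-) and age. Histone and S-phase sums of all d2 libraries lie above those of all e18.5 libraries; Tex15+/- d2 replicate 4 is the lowest d2 library in each panel.

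Among genes for histone mRNA transcription and 3′ processing, 7 of 15 rose and 3 fell from e18.5 to d2 in Tex15+/- cells, and 8 rose and 3 fell in Tex15-/- cells (7 and 3 without d2 replicate 2). These are 66.7% and 73.3% of the list, beside 51.2% and 55.0% of all genes called in either direction. Slbp, whose protein binds the stem-loops printed above, rose 2.80-fold in Tex15+/- cells (47.5 ± 2.28 to 133 ± 30.7 CPM, adjusted p = 8.64e-08) and 4.02-fold in Tex15-/- cells (38.8 ± 4.11 to 156 ± 24.7 CPM, adjusted p = 6.45e-10; 4.22-fold without d2 replicate 2). Sympk, a scaffold of the cleavage complex, fell 2.33-fold and 3.27-fold (3.63-fold without that library). Pou2f1, a protein that binds the octamer element, fell 1.78-fold in Tex15+/- cells (adjusted p = 5.06e-07). Of 18 tested histone chaperones, 11 rose and none fell in Tex15+/- cells, and 14 rose and 2 fell in Tex15-/- cells, also without d2 replicate 2. That is 61.1% and 88.9% called, again beside 51.2% and 55.0% of all genes. Chaf1b, a subunit of the CAF-1 complex that deposits new H3 and H4 at replication forks, rose 12.7-fold and 10.97-fold (11.3-fold without Tex15-/- d2 replicate 2), and Chaf1a, the large subunit, rose 3.06-fold and 3.31-fold (3.45-fold). Between genotypes Cstf2, a cleavage stimulation factor, was called higher in Tex15-/- cells at d2 (146 ± 16.0 against 214 ± 25.5 CPM, adjusted p = 0.0218), and the chaperone Npm1 lower at e18.5 (513 ± 12.1 against 378 ± 40.5 CPM, adjusted p = 0.0436). Cstf2 was lost without Tex15+/- replicate 1 (0.0564) or 4 (0.0518) or Tex15-/- replicate 1 (0.108), 3 (0.0525) or 4 (0.0703), but not without Tex15-/- replicate 2 (0.0117), and Npm1 without any of 5 libraries (0.0507 to 0.310), all but Tex15+/- replicate 3. With library sizes from all counts neither was called (0.148 for Cstf2 and 0.0886 for Npm1), and in the fit of all ages Npm1 was not (0.443).

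Histone variants outside the clusters also rose at d2, 8 of 14 in each genotype, with 1 fall in Tex15+/- and 2 in Tex15-/- cells, also without Tex15-/- d2 replicate 2. That is 64.3% and 71.4% called, where 51.2% and 55.0% of all genes were. H1f0, a replication-independent linker histone, rose 4.10-fold in Tex15+/- cells (12.2 ± 1.69 to 50.01 ± 9.33 CPM, adjusted p = 1.45e-07) and 3.21-fold in Tex15-/- cells (3.35-fold without d2 replicate 2). Cenpa, the centromeric H3 variant, rose 4.62-fold and 5.92-fold (6.46-fold without that library). From e16.5 to e18.5, 5 of 14 variants fell in Tex15+/- cells (2 or 3 without e16.5 replicate 1 or without any 1 of the e18.5 libraries), with H3f3b, one of the genes for H3.3, going from 174 ± 23.8 to 101 ± 19.0 CPM (adjusted p = 0.00149). Between genotypes 1 variant was called, at d2: H1fnt, a germ-line linker histone known from spermatids, had 92 counts over the 4 Tex15+/- libraries (1.42, 1.75, 2.65 and 3.38 CPM) and 0 in the 4 Tex15-/- libraries. It was at least 27.0-fold lower in Tex15-/- cells against a floor of 3 counts over the group (adjusted p = 0.00144, 0.00470 without Tex15-/- replicate 2, and 1.85e-05 to 0.0340 over the alternatives). This holds for d2 only, and levels of H1fnt before birth are not given here. At e18.5, 0 of 12 tested variants were called between genotypes, with log2 differences from -0.43 to 1.02. Within the list, the largest log2 changes in Tex15-/- cells were 7.17 from e16.5 to e18.5 and -7.17 from e18.5 to d2. Both are fitted values to which no floor on counts was applied, and neither size is to be read as a measured fold.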

How the data were processed

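RNA of sorted mouse male germ cells was amplified and made into libraries with Ovation kits, per the labels' protocols. The authors deposited unnormalized read counts, 1 table per age with gene symbols and repeat names as rows; a second table per age with repeat families was not used here. The submitters' processing notes name STAR, featureCounts, edgeR, Bowtie and build mm9, without versions or roles. Strand use and the treatment of reads with several matches are not given in the sources used here.

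Gene rows above the first repeat name were taken. Each age was fitted alone for genotype, and 1 fit of 6 groups on the 23853 symbols common to the 3 tables gave age contrasts and interactions: edgeR 4.0.16 in R 4.3.3, filterByExpr (10 counts, 15 in total), TMM factors, robust quasi-likelihood F test, Benjamini-Hochberg adjustment over all genes, threshold 0.05. SE is the absolute log2 fold change divided by the square root of F, and intervals are 1.96 SE either side; both are approximate. Ratios at 1 to 3 counts have 95% exact binomial intervals, and groups at 0 a floor of 3 counts, for counting error only. The fit was also run on simulated counts with known changes in randomly chosen genes that passed the filter. Its recovery of changes in low-count members was not measured apart. Alternatives were DESeq2 1.42.0, median-ratio factors, library sizes from all counts, no filter, a filter at 1 CPM, a replicate block, other sets of samples, and each library left out. Sums without each library were added after the data were seen.

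Named were up to 10 called members per comparison with the smallest p (with fewer than 3 called, the first 3), the most abundant member per type, Hist1h1t, Hist1h2aa, Hist1h2ba, Hist1h1c and Hist2h2be, and up to 2 called genes of each list with the smallest p. Coding lengths came from GENCODE M21, not from a protein table. The members, gene lists and tests were chosen with earlier results of these data known. Total counts per library bound the precision: the members held 486 to 2536 counts per library.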

Additional observations from a re-analysis of the deposited data

Results flagged for a closer look

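In the groups of 4 libraries at d2, 54 sets of values were tested for a library standing apart by Dixon's test, which flags about 1 in 20 sets by chance; 4 stood apart. Tex15 was at 101.5 CPM in the library labelled Tex15-/- d2 replicate 2 and at 2.04 to 2.61 CPM in the other 3. In the same library Hist1h1a was at 5.08 CPM, below the 6.64 to 6.77 CPM of the others. Hist1h1d was at 1.69 CPM in Tex15-/- d2 replicate 3, above 0.508 to 0.673 CPM. Hist2h2be was at 4.62 CPM in Tex15+/- d2 replicate 4, above 2.52 to 2.74 CPM; that library also had the lowest S-phase, mitosis and histone sums at d2.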

How the results depend on the processing

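Over the settings other than leaving out a library, the number of members called from e18.5 to d2 was 12 to 18 in Tex15+/- cells (15 as reported) and 5 to 10 in Tex15-/- cells (7), and from e16.5 to e18.5 it was 3 to 4 (4) and 2 to 3 (2). Between genotypes it was 0 at e16.5 and e18.5 under every setting run, and 0 at d2 except with DESeq2, which called 1 lower, Hist1h1e. Both tests of a change of the genotype difference with age gave 0 throughout. Leaving out 1 library gave 11 to 16 calls and 6 to 9 calls from e18.5 to d2 in Tex15+/- and Tex15-/- cells, 1 to 4 and 1 to 3 from e16.5 to e18.5, and 0 to 0 for each comparison between genotypes and each change with age. Where a lone change of sign occurred, the log2 change of the genotype difference of Hist1h1d from e16.5 to e18.5 was 3.72 as reported, -0.29 without Tex15-/- e18.5 replicate 3 (the lowest) and 5.36 without Tex15+/- e18.5 replicate 1 (the highest); the cause was not tested. Of 779 recomputed values of member genes, 720 kept their direction and side of the threshold, 36 lost the call, 22 gained one and 1 changed sign. Settings that gave a gene no adjusted p are left out and are not counted as lost calls. From e18.5 to d2 in Tex15+/- cells, Hist1h1d and Hist2h2ab had 11 such values each and Hist1h1a had 14. The 720 also include genes without a call as reported, which could not lose one.

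Whether the replicate numbers pair the libraries is not given in the sources used here. Correlations of same-numbered deviations from the group means ran from -0.28 to 0.11. The best match was the library of the same number in 5 of 10 cases. At e18.5 this held for replicates 1, 2 and 3, with correlations of 0.113, 0.0520 and 0.0881. There a replicate block moved the share of all genes called between genotypes from 2.33% to 3.31%. With the replicate number as a block, 0 members were called between genotypes at each age, 4 and 2 from e16.5 to e18.5, and 14 and 6 from e18.5 to d2. Of the genes named, Hist1h1b in Tex15+/- cells (adjusted p = 0.0532), Hist1h2ak in Tex15-/- cells (0.0989), and between genotypes at d2 Cstf2 (0.0567), Sox9 (0.0825) and Dazl (0.0845) were not called with the block.

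With library sizes from all counts, the median log2 fold change of all genes moved from -0.02 to -0.17 between genotypes at d2, where 45.9% in place of 72.3% of calls were higher, and no member was called. Low counts are a limit: 40 of 68 members could not be tested across ages.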
